A study of Mus musculus with 5 samples.

Results

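The genes described here are 10 that fibroblasts are known for: Col1a1, Col1a2 and Col3a1, which encode chains of the fibrillar collagens I and III, Col6a1, Col6a2 and Col6a3, which encode the chains of collagen VI, the matrix proteins Dpt, Dcn and Lum, and the receptor Pdgfra. They were taken by symbol from the deposited count table, which lists 54532 genes. All 10 were found, and all 10 were among the 17906 genes with enough reads to be tested.

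Gene expression was measured by bulk RNA-seq in 5 flash-frozen mouse lung tumours of small cell lung cancer, a cancer of neuroendocrine cells. All 5 carried the genotype given as RPP, whose letters are not spelled out. The treatment was vehicle for 2 tumours and LSN, an inhibitor of the mitotic kinase Aurora A, for 3. The dose, the length of treatment and the age of the mice were not given in the sources used here. Nothing states that each tumour came from its own animal, and a p-value then reflects only how much these samples vary, which may be technical. The sample labels describe lung tumours taken at necropsy, with tumour cell as the cell type, whereas the series' own description of its design names primary cancer cells. The samples were treated here as tissue, which the sources do not settle, and in bulk tissue fewer fibroblasts and less RNA per fibroblast cannot be told apart.

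Fibroblasts build the connective tissue of the lung and of tumours. They secrete procollagen chains that fold into triple helices. Collagen I, made of chains from Col1a1 and Col1a2, and collagen III, made from Col3a1 alone, assemble outside the cell into fibrils. Collagen VI forms beaded filaments near cell surfaces and basement membranes, with 1 chain each from Col6a1, Col6a2 and Col6a3. Dcn (decorin) and Lum (lumican) are small leucine-rich proteoglycans that bind collagen fibrils and govern their spacing, Dpt (dermatopontin) binds decorin and collagen, and Pdgfra is a receptor tyrosine kinase for platelet-derived growth factors that marks many fibroblasts.

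The sequence upstream of a RefSeq transcript start is shown for the 2 pairs of collagen genes whose levels moved most nearly together over the tumours, Col1a2 with Col3a1 and Col6a1 with Col6a2, and for Pdgfra, whose levels stood apart. The sequences are from RefSeq on the build GRCm38.p6, on the strand of the gene, and only bases outside annotated exons are printed. For Col1a2 the RefSeq start lies downstream of the gene start in the deposited table, so its stretch falls inside the gene as that table gives it. They span chr6:4505370-4505492 on the plus strand for Col1a2, chr1:45311288-45311537 on the plus strand for Col3a1, chr10:76726169-76726294 on the minus strand for Col6a1, chr10:76623631-76623880 on the minus strand for Col6a2 and chr5:75152001-75152250 on the plus strand for Pdgfra. Capitals mark matches to TATAAA, the TATA box, GGGCGG, the GC box bound by Sp1, which reads CCGCCC on the other strand, and CATTCC, the core bound by TEAD factors.
Col1a2: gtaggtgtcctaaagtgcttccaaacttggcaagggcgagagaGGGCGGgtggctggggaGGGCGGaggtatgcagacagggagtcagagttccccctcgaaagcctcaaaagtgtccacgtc
Col3a1: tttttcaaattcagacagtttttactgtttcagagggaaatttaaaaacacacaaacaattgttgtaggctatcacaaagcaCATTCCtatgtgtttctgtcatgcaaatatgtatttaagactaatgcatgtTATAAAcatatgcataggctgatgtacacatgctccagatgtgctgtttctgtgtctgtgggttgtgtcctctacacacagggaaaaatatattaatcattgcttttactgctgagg
Col6a1: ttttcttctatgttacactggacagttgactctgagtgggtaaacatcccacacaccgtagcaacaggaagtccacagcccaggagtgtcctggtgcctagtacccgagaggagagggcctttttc
Col6a2: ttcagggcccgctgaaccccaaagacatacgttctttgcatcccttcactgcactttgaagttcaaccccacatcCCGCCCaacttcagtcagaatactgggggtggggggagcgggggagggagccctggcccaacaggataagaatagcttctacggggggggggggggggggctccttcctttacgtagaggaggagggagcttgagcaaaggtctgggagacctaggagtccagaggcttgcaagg
Pdgfra: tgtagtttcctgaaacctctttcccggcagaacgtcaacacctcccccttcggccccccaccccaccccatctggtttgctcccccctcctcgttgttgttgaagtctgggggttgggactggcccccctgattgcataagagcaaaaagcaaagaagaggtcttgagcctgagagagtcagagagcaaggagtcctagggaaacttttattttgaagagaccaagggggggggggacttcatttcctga

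RefSeq windows of 250 bases upstream of a start were matched for 7 of the 10 genes, and both strands were searched for the 3 motifs above and for CCAAT, the box bound by NF-Y. The Col3a1 window held TATAAA and CATTCC, which occurred in 12.4% and 12.6% of all 32851 windows of that length. GGGCGG, present in 32.7% of all windows, occurred at 2 places in the Col1a2 window and in both windows listed for Col6a2. One of the Col6a2 windows also held CATTCC. The part of the Col1a2 window that is not printed held CCAAT, present in 33.8% of all windows. The windows of Col6a1, Col6a3, Dpt and Pdgfra held none of the 4 motifs, so Col6a1 and Col6a2, whose levels were nearly parallel, had no searched motif in common. A match describes letters and not binding, and the absence of these letters from a window says nothing about the factors that bind them.

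Total counts per tumour lay between 17439049 and 19766604, with 23446 to 24604 genes above 0. In the comparison of LSN with vehicle over all genes, 0 genes passed the adjusted threshold of edgeR, which is 0% of those tested, against 764 with an unadjusted p under 0.05. DESeq2, a second count model, called 100 of 18547 genes (0.539%), none of them among the 10, and limma-voom called 0. The smallest adjusted p in the edgeR fit was 0.9996, and all 10 genes shared that value, so none is described here as changed. Levels are given as CPM, the count scaled to the size of the library after TMM adjustment, with a floor of 3 counts at 0.16 to 0.166 CPM.

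The 10 genes lay mostly lower in the LSN tumours. The log2 fold change of LSN over vehicle was below 0 for 9 of 10, where 46.8% of all tested genes were below 0. In 5 of 10, Col1a1, Col6a1, Col6a2, Dpt and Lum, every LSN tumour was below both vehicle tumours, a pattern found in 10.4% of all genes tested. None of the 10 had every LSN tumour above both vehicle tumours, as 8.48% of all genes did. At an unadjusted p under 0.05, 1 of 10 was lower, Dpt, against 3.21% of all genes. The median log2 fold change of the 10 was -0.84, and over all genes tested it was 0.03.

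Much of the difference lay in a single vehicle tumour. Together the 10 genes took 801 CPM in vehicle tumour 1 and 1653 CPM in vehicle tumour 2, against 875, 808 and 466 CPM in LSN tumours 1, 2 and 3. As a share of all counts this was 0.0834% and 0.171% with vehicle and 0.0893%, 0.0763% and 0.0448% with LSN. With all 10 genes, vehicle tumour 1 lay inside the range of the LSN tumours on both scales, while vehicle tumour 2 lay above all others. The place of vehicle tumour 1 among them depended on the scale and on Pdgfra: it was below LSN tumour 2 in CPM and above it as a share of counts. Without Pdgfra the sums were 791 and 1594 CPM with vehicle and 712, 804 and 460 CPM with LSN. Scaled by total counts without TMM, these sums were 824 and 1650 CPM with vehicle and 727, 758 and 442 CPM with LSN. On that scale vehicle tumour 1 lay above every LSN tumour. Vehicle tumour 2 was the highest of the 5 tumours for 7 genes, and LSN tumour 3 was the lowest for 6. Leaving out vehicle tumour 2 brought the median log2 fold change of the 10 to -0.34, and leaving out vehicle tumour 1 brought it to -1.26.

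**Figure D1:**
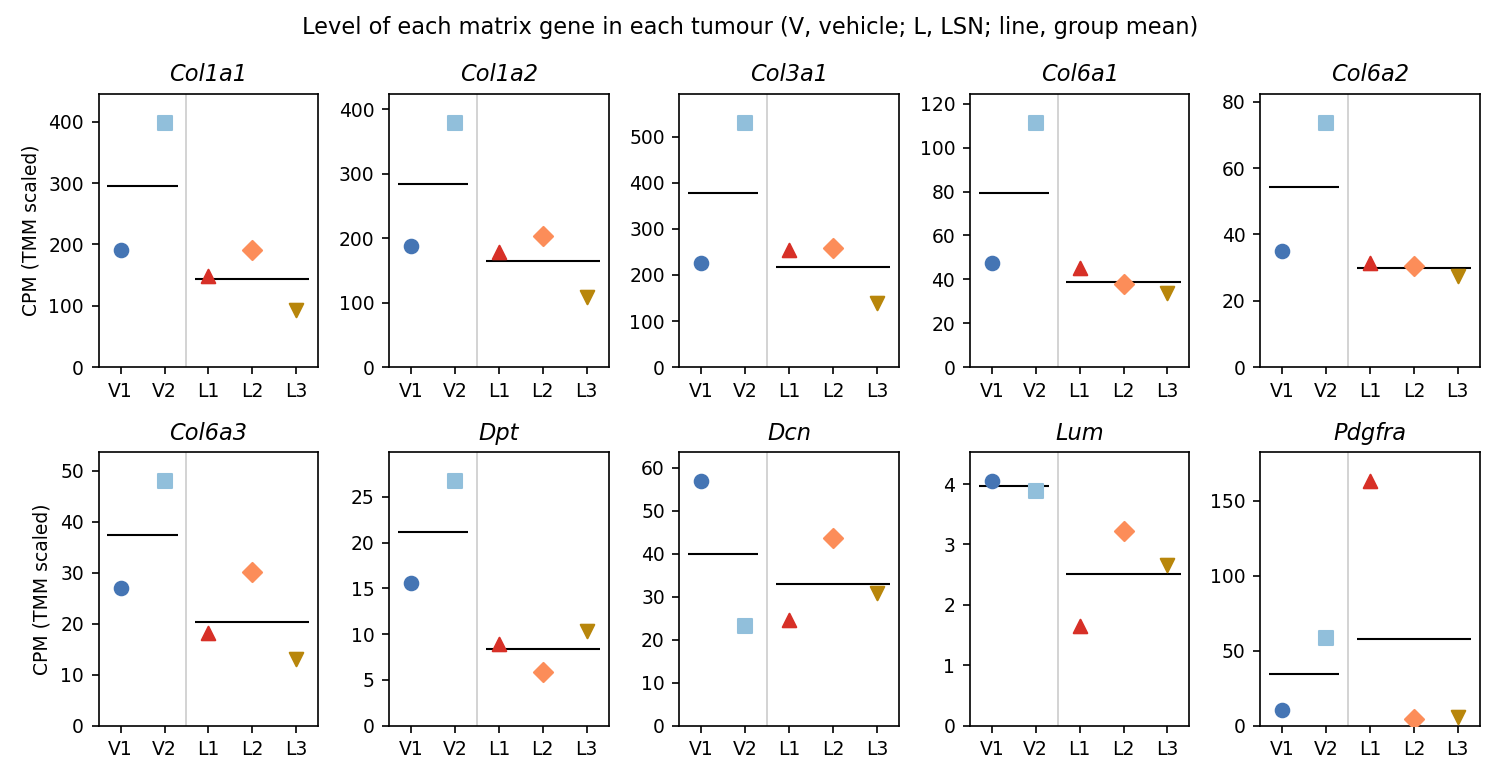
Level of each of the 10 genes (vertical axis, CPM scaled by TMM, starting at 0) in vehicle tumours V1 and V2 and LSN tumours L1, L2 and L3 (horizontal axis). Points are single tumours and lines are group means. V2 is the highest tumour in 7 panels, V1 in those of Dcn and Lum, and L1 in that of Pdgfra.

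Col1a1 (ENSMUSG00000001506, chr11:94936224-94953042, plus strand) encodes the chain that enters collagen I in pairs. Its level was 191 and 398 CPM with vehicle and 149, 190.2 and 92.8 CPM with LSN. All LSN tumours were below both vehicle tumours, although LSN tumour 2 came within 1 CPM of vehicle tumour 1. The means were 294.5 ± 146.9 CPM with vehicle (SD, n = 2) and 143.9 ± 48.9 CPM with LSN (SD, n = 3). The log2 fold change was -1.04 ± 0.44 (SE), with an unadjusted edgeR p of 0.0622, and -0.40 without vehicle tumour 2.

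Col1a2 (ENSMUSG00000029661, chr6:4504814-4541544, plus strand), the partner chain of collagen I, reached 188 and 379 CPM with vehicle and 179, 204 and 109 CPM with LSN. The groups overlapped, because LSN tumour 2 exceeded vehicle tumour 1. Group means were 283.5 ± 135.1 and 163.9 ± 49.0 CPM (SD, n = 2 and n = 3). For this gene the log2 fold change was -0.80 ± 0.42 (SE) with an unadjusted edgeR p of 0.111, and -0.19 without vehicle tumour 2.

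Col3a1 (ENSMUSG00000026043, chr1:45311538-45349706, plus strand) had the most reads of the 10 genes. It stood at 227 and 530.1 CPM with vehicle and at 255, 258 and 139 CPM with LSN, so that LSN tumours 1 and 2 both exceeded vehicle tumour 1. The mean was 378.4 ± 214.6 CPM with vehicle (SD, n = 2) and 217.5 ± 67.8 CPM with LSN (SD, n = 3). Its log2 fold change of -0.80 ± 0.47 (SE), with an unadjusted edgeR p of 0.141, became -0.05 without vehicle tumour 2.

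Col6a1 (ENSMUSG00000001119, chr10:76708792-76726168, minus strand) encodes the first of the collagen VI chains. Its level was 47.4 and 111 CPM with vehicle and 45.1, 37.8 and 34.0 CPM with LSN. The LSN tumours lay close together and under vehicle tumour 1, and vehicle tumour 2 was 2.35 times vehicle tumour 1. The means were 79.4 ± 45.2 CPM (SD, n = 2) and 39.0 ± 5.67 CPM (SD, n = 3), and the log2 fold change was -1.03 ± 0.42 (SE). The unadjusted edgeR p was 0.0513. Without vehicle tumour 2 the log2 fold change was -0.28, and without vehicle tumour 1 it was -1.51 with an unadjusted p of 0.00794.

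Col6a2 (ENSMUSG00000020241, chr10:76595762-76623630, minus strand), which lies next to Col6a1 on chromosome 10, gave the same picture at a lower read count. It measured 34.9 and 73.6 CPM with vehicle and 31.3, 30.4 and 27.6 CPM with LSN, with no overlap between the groups. The vehicle mean was 54.3 ± 27.4 CPM (SD, n = 2) and the LSN mean 29.8 ± 1.96 CPM (SD, n = 3). The log2 fold change of -0.87 ± 0.37 (SE) had an unadjusted edgeR p of 0.0626, and it was -0.22 without vehicle tumour 2.

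Col6a3 (ENSMUSG00000048126, chr1:90765923-90843971, minus strand) encodes the largest collagen VI chain and followed another order. Its level was 27.0 and 48.0 CPM with vehicle and 18.1, 30.1 and 13.1 CPM with LSN, and LSN tumour 2 exceeded vehicle tumour 1. Means were 37.5 ± 14.8 CPM (SD, n = 2) and 20.4 ± 8.77 CPM (SD, n = 3). The log2 fold change of -0.88 ± 0.48 (SE) had an unadjusted edgeR p of 0.119, and it was -0.40 without vehicle tumour 2.

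Dpt (ENSMUSG00000026574, chr1:164796644-164824266, plus strand) was the gene of the 10 with the largest log2 fold change below 0. It stood at 15.6 and 26.7 CPM with vehicle and at 8.87, 5.90 and 10.3 CPM with LSN, and each LSN tumour was below both vehicle tumours. Means of 21.1 ± 7.86 CPM (SD, n = 2) and 8.37 ± 2.26 CPM (SD, n = 3) gave a log2 fold change of -1.34 ± 0.46 (SE). The unadjusted p was 0.03 in edgeR, 0.0288 in limma-voom and 0.00877 in DESeq2, and the DESeq2 adjusted p was 0.361. Its log2 fold change was -0.89 without vehicle tumour 2. The antisense gene Gm32569 overlaps Dpt, and the libraries carry no strand, so their reads cannot be told apart, although at most 14 reads in any tumour were assigned to Gm32569.

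Dcn (ENSMUSG00000019929, chr10:97479609-97518143, plus strand) ran against the collagens in the vehicle tumours. Its level was 56.8 CPM in vehicle tumour 1, the highest of all, and 23.2 CPM in vehicle tumour 2, the lowest of all. The LSN tumours lay between, at 24.7, 43.6 and 30.8 CPM. Means were 40.0 ± 23.7 CPM (SD, n = 2) and 33.0 ± 9.65 CPM (SD, n = 3), with a log2 fold change of -0.28 ± 0.47 (SE) and an unadjusted edgeR p of 0.581. The direction depended on which vehicle tumour was kept: -0.78 without vehicle tumour 2 and 0.51 without vehicle tumour 1.

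Lum (ENSMUSG00000036446, chr10:97565128-97572703, plus strand), the next tested gene beyond Dcn on chromosome 10, was the least abundant. It had 75 and 70 reads with vehicle and 30, 60 and 50 with LSN, equal to 4.04 and 3.88 CPM against 1.64, 3.22 and 2.66 CPM. The LSN tumours were all below the vehicle tumours, but exact Poisson intervals at 95%, which cover counting error only, ran from 3.02 to 4.90 CPM in vehicle tumour 2 and from 2.45 to 4.14 CPM in LSN tumour 2. Means were 3.96 ± 0.118 CPM (SD, n = 2) and 2.51 ± 0.798 CPM (SD, n = 3). The log2 fold change was -0.66 ± 0.57 (SE), with an unadjusted edgeR p of 0.296, and it was -0.68 without vehicle tumour 2.

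Pdgfra (ENSMUSG00000029231, chr5:75152292-75198215, plus strand) had a highest tumour 34.1 times its lowest, against 2.45 to 4.53 times for the other 9 genes. Its level was 10.3 and 58.5 CPM with vehicle and 163, 4.77 and 5.96 CPM with LSN. LSN tumour 1, with 2972 reads, was 2.78 times the next tumour, and LSN tumour 2, with 89 reads, was the lowest. The 2 remaining LSN tumours were below both vehicle tumours, so the LSN group held the highest and the lowest values. Means of 34.4 ± 34.2 CPM (SD, n = 2) and 57.8 ± 90.9 CPM (SD, n = 3) gave a log2 fold change of 0.75 ± 1.73 (SE), with an unadjusted edgeR p of 0.68. The sign rested on LSN tumour 1 and on the method: the value was -2.70 without that tumour, where edgeR gave a p of 0.0327 before adjustment and 0.713 after it, and -0.57 in limma-voom with all tumours. It was -0.01 without vehicle tumour 1 and 2.51 without vehicle tumour 2.

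**Figure D2:**
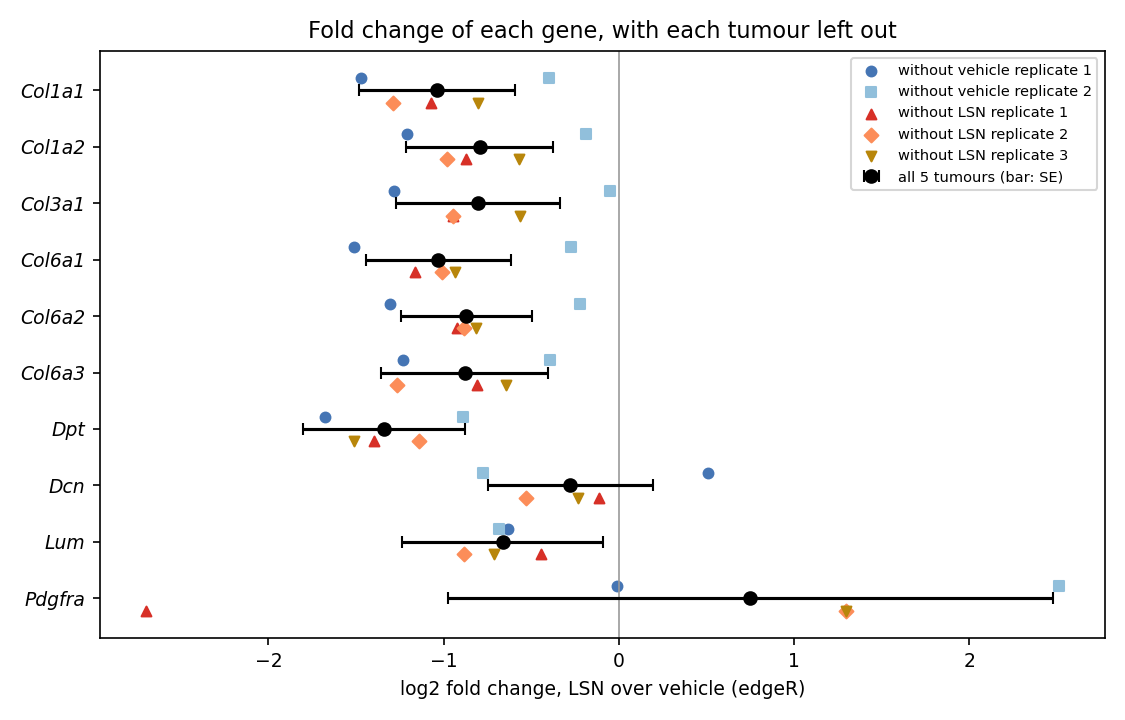
Log2 fold change of LSN over vehicle (horizontal axis) for each of the 10 genes (vertical axis) from edgeR with all 5 tumours (black points, bars are SE) and with 1 tumour left out (coloured markers). For the 6 collagen genes the value nearest 0 comes without vehicle tumour 2, at -0.05 for Col3a1, while Pdgfra spans -2.70 to 2.51.

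The genes around Pdgfra on chromosome 5, which were looked at after the Pdgfra values were seen, differed in their levels in LSN tumour 1. Chic2, the nearest tested gene on one side, lay between 55.0 and 69.0 CPM in all 5 tumours. Kit, which encodes the receptor for stem cell factor and lies on the other side, was at 114 CPM in LSN tumour 1, inside the range of 104 to 220.1 CPM. Kdr, the main receptor for vascular endothelial growth factor, was at 11.2 CPM there. Lnx1 was highest in LSN tumour 1, as Pdgfra was, at 60.2 CPM against 16.4 and 28.1 CPM with vehicle and 39.7 and 19.4 CPM in the other LSN tumours. Also chosen after the values were seen, Ddr2, a receptor for fibrillar collagen, followed the order of Pdgfra in part, at 22.3 and 104 CPM with vehicle and 166, 12.7 and 7.83 CPM with LSN. Tgfb2, a ligand of the TGF-beta family, was likewise highest in LSN tumour 1, at 47.2 CPM against 3.14 to 16.8 CPM in the other tumours.

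Ratios of Col1a1 to Col1a2 and of Col6a1 to Col6a2 differed little from tumour to tumour, and that of Col6a3 to Col6a1 differed more. Ratios of reads within a tumour do not depend on how libraries are scaled, and 7 were tested with an exact two-sided permutation test, which cannot give a p below 0.1 for 2 tumours against 3. The log2 ratio of Col1a1 to Col1a2 was 0.02 and 0.07 with vehicle and -0.27, -0.10 and -0.23 with LSN. All LSN tumours were thus below both vehicle tumours, by 0.25 on average (exact permutation p = 0.2, adjusted over 7 ratios 0.7). The log2 ratio of Col1a1 to Col3a1 was also lower in all LSN tumours, at -0.78, -0.44 and -0.59 against -0.25 and -0.41, with the same exact permutation p of 0.2. Beside this, the median log2 fold change over the 1422 tested genes of chromosome 11, where Col1a1 lies, was 0.34, against -0.002 on chromosome 6 and 0.06 on chromosome 1, and its part in the ratios was not tested.

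Within collagen VI, the log2 ratio of Col6a1 to Col6a2 ranged over only 0.30, from 0.30 in LSN tumour 3 to 0.60 in vehicle tumour 2 (exact permutation p = 0.3 for the group difference of -0.14). Col6a3 was less tightly tied to Col6a1, with log2 ratios of -0.81 and -1.21 with vehicle and -1.32, -0.33 and -1.38 with LSN. That spread of 1.05 gave no separation of the groups (exact permutation p = 1). Collagen VI against collagens I and III had log2 ratios of -2.50 and -2.56 with vehicle and -2.68, -2.72 and -2.28 with LSN (exact permutation p = 1). The 2 kinds of collagen therefore kept their proportion within 0.44 on the log2 scale while their summed levels differed by several fold between tumours: collagens I and III took 605, 1307, 582, 652 and 341 CPM in the order vehicle 1, vehicle 2, LSN 1, LSN 2 and LSN 3, and collagen VI took 109, 233, 94.6, 98.4 and 74.6 CPM.

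The proteoglycan pair was split by vehicle tumour 2. Dcn exceeded Lum in reads by log2 ratios of 3.81 in vehicle tumour 1 and 3.91, 3.76 and 3.53 in the LSN tumours, but by 2.58 in vehicle tumour 2 (exact permutation p = 0.4 between the groups). The log2 ratio of Pdgfra to Col1a1 ranged over 5.45, from -5.32 in LSN tumour 2 to 0.13 in LSN tumour 1, the only tumour with more Pdgfra reads than Col1a1 reads (exact permutation p = 0.9).

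**Figure D3:**
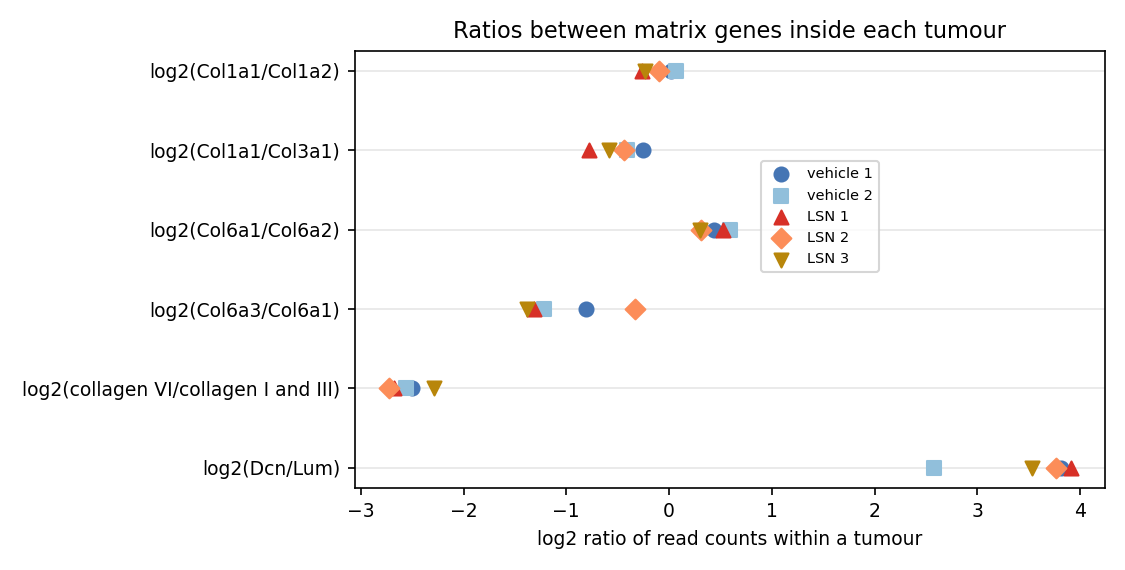
Log2 ratio of read counts between genes inside each tumour (horizontal axis) for 6 of the 7 ratios (vertical axis), 1 point per tumour. The points of Col6a1/Col6a2 lie within 0.30 of each other, and vehicle tumour 2 stands apart at 2.58 for Dcn/Lum. Pdgfra/Col1a1, with a range of 5.45, is not drawn.

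Levels of different genes were compared per length, as TPM, the count divided by the deposited exon length and scaled to the same total in every tumour. The mean over the 5 tumours was 106 TPM for Col1a1, 98.2 for Col3a1 and 58.1 for Col1a2. In single tumours Col1a1 and Col3a1 changed order, with 212 against 188 TPM in vehicle tumour 2 and 83.3 against 95.5 TPM in LSN tumour 1, so these neighbours did not differ beyond their spread. Among the collagen VI chains, Col6a1 had 43.1, Col6a2 16.2 and Col6a3 7.74 TPM on average, an order that was the same in every tumour. Dpt at 26.7 TPM and Dcn at 20.6 TPM lay between Col6a1 and Col6a2 on average, and Lum was lowest at 4.25 TPM. Pdgfra averaged 17.4 TPM, from 1.49 TPM in LSN tumour 2 to 59.7 TPM in LSN tumour 1, where Col1a2 was at 52.9 TPM.

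The order of the leading genes depended on which length was used. With the length of the longest coding transcript in place of all annotated exons, an alternative added after the data were seen, Col3a1 led with 173 TPM, followed by Col1a2 with 135 and Col1a1 with 117. Dcn, whose annotated exons cover 5838 bases against 1758 in that transcript, went from 20.6 to 68.4 TPM and above Col6a1 at 46.0 TPM. In LSN tumour 1 the order of Pdgfra and Col1a2 turned, at 87.6 against 123 TPM. The order of the collagen VI chains did not depend on this choice, at 46.0, 29.0 and 9.16 TPM.

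Profiles over the tumours were compared as log2 CPM centred on each gene's mean, with the root mean square difference as the measure of distance. This is a description over 5 tumours. Col1a2 and Col3a1 were the closest pair of the 10, at 0.09, followed by Col6a1 and Col6a2 at 0.12 and Col1a1 and Col1a2 at 0.13. Col6a3 was nearer to Col1a1, at 0.15, than to Col6a1, at 0.39. Dcn was 0.80 to 0.94 from each collagen gene and nearest to Lum, at 0.47. Pdgfra was 1.73 to 2.35 from every other gene.

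**Figure D4:**
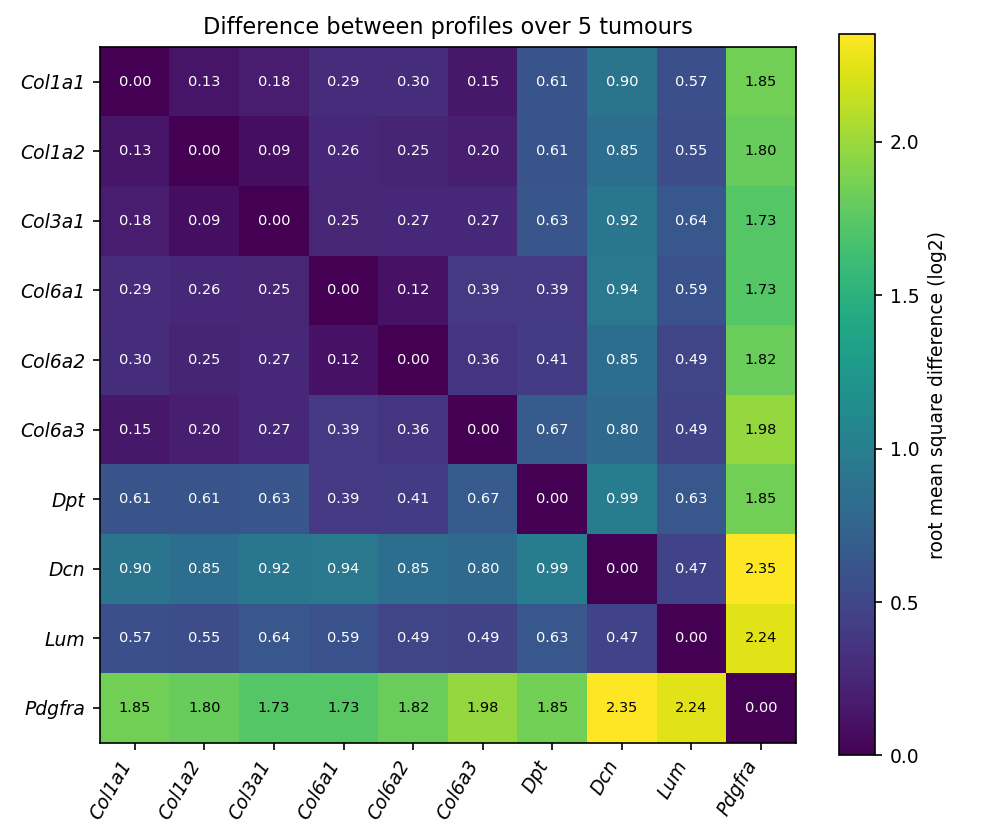
Root mean square difference of centred log2 CPM over 5 tumours between each pair of the 10 genes (both axes), with the value in each cell and on the colour scale. The 6 collagen genes form a block from 0.09 to 0.39, and the row of Pdgfra runs from 1.73 to 2.35.

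The genes of the whole table nearest to the mean profile of the 10, among those with at least 5 CPM on average, were Gsap at 0.04, Vasn at 0.05 and Iffo2 at 0.07. Pdgfra is part of that mean profile and weighs on it in the LSN tumours. Its centred log2 CPM was 3.05 in LSN tumour 1 and -2.01 in LSN tumour 2, where the mean profile was at 0.015 and -0.275. Gsap had 42.5 and 72.9 CPM with vehicle and 38.5, 34.1 and 24.8 CPM with LSN. The others of the nearest 12 were Ece2, Postn, Serping1, Nexn, Pdgfrb, Arhgap27, Gigyf1, Gpr146 and Tonsl, at 0.10 to 0.13. Of the nearest 12, Postn, which encodes the matrix protein periostin, and Pdgfrb, the second receptor for platelet-derived growth factors, are also matrix or stromal genes on the lists used below. For single genes, the nearest other gene was Dab2 for both Col3a1 (0.04) and Col1a2 (0.06), Itga1 for Col1a1 (0.08), Plat for Col6a1 (0.08) and Inhbb for Col6a3 (0.13). Col4a2, a chain of basement membrane collagen IV, was nearest to Col6a2 at 0.08. Pdlim2 was nearest to Dpt (0.09), Tasp1 to Dcn (0.08), D730045B01Rik to Lum (0.05) and 3632454L22Rik to Pdgfra (0.13).

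Other genes of the extracellular matrix were taken from lists of 9 functions, and 0 genes of any list passed the adjusted threshold in edgeR. Beside the counts that follow, 46.8% of all genes tested were below 0, 10.4% separated lower and 8.48% separated higher. Of 14 other fibrillar and associated collagens tested, 12 had a log2 fold change below 0 and the median was -0.56. Col5a2, which co-assembles with collagen I, was at 43.9 and 104 CPM with vehicle and 53.2, 67.8 and 24.4 CPM with LSN, an order like that of Col3a1. Col8a1, a network-forming collagen, had another order altogether, at 724 CPM in vehicle tumour 1, 11.97 in vehicle tumour 2 and 30.9, 557 and 451 in the LSN tumours. Every LSN tumour was below both vehicle tumours for 3 of the 14 and above for 1, Col6a4, a further collagen VI chain at no more than 1.18 CPM.

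Basement membrane collagens and laminins were below 0 in 12 of 16, with a median log2 fold change of -0.90 and 6 of 16 separating lower. Col4a1 was at 277 and 646 CPM with vehicle and 197, 221 and 166 CPM with LSN (log2 fold change -1.25 ± 0.40 SE, unadjusted edgeR p 0.0221). Hspg2, which encodes perlecan, had a log2 fold change of -1.54 ± 0.40 (SE), with an unadjusted edgeR p of 0.0099. Vehicle tumour 2 was highest for both, as it was for the collagens I, III and VI.

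Among 23 genes for collagen folding, processing and crosslinking, 16 were below 0 and the median was -0.38. Of the 23, 3 separated lower, near the 10.4% of all genes tested. Pcolce, whose product enhances the removal of the procollagen C-propeptide, was at 25.4 and 28.3 CPM with vehicle and 9.86, 11.04 and 10.9 CPM with LSN. The groups were well apart, and a log2 fold change of -1.35 ± 0.32 (SE) came with an unadjusted edgeR p of 0.00693, an edgeR adjusted p of 0.9996 and a DESeq2 adjusted p of 0.0159. It was the only gene of the 9 lists that DESeq2 called. P4hb, a subunit of prolyl 4-hydroxylase, lay the other way, at 457 and 474 CPM against 451, 824 and 751 CPM, with overlap.

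Of 9 other small leucine-rich proteoglycans tested, 7 were below 0 and none separated the groups, with a median of -0.44. Bgn (biglycan) had 141 and 266 CPM with vehicle and 147, 155 and 68.0 CPM with LSN, in the order of Col3a1 and not of Dcn. Prelp was at 205 CPM in LSN tumour 2 and at 7.99 to 32.0 CPM elsewhere. Elastic fibre genes and other matrix glycoproteins were below 0 in 21 of 24, with a median of -0.68, 8 of 24 separating lower and 5 at an unadjusted p under 0.05. They included Sparc, a collagen-binding glycoprotein, at 346 and 799.7 CPM against 281, 274 and 172 CPM, and Ltbp4, which binds latent TGF-beta, at 161 and 206 CPM against 86.7, 51.1 and 27.7 CPM. Fn1, fibronectin, overlapped, with its highest level, 582 CPM, in LSN tumour 2.

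Matrix proteases and their inhibitors were below 0 in 9 of 14, with a median of -0.34 and 3 separating lower. The other PDGF ligands and receptors were below 0 in 4 of 6, with a median of -0.51 and 3 separating lower, among them the ligand gene Pdgfb at 16.5 and 39.7 CPM against 9.48, 9.81 and 11.5 CPM. Pdgfrb was at 27.5 and 47.4 CPM with vehicle and 25.1, 25.8 and 17.4 CPM with LSN, so it followed the order of Col1a1 where Pdgfra did not. TGF-beta signalling was below 0 in 8 of 15, near the 46.8% of all genes tested, with a median of -0.05, 3 separating lower and 1 higher. Collagen receptors were below 0 in 8 of 10, with a median of -0.57 and 5 separating lower. The median difference in mean log2 CPM, a second measure, was -0.38 for the small leucine-rich proteoglycans and -0.49 for the proteases with all tumours, and 0.20 and 0.004 without vehicle tumour 2, and leaving out any tumour changed the sign of no other of these 9 lists.

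Markers of several cell types other than fibroblasts lay lower with LSN as well, and their part in the levels of the 10 genes was not tested. Over all genes tested the shares were 46.8% below 0, 10.4% separating lower and 8.48% separating higher. Other fibroblast markers, 7 of whose 20 genes also stand on the matrix lists, were below 0 in 17 of 19 tested, 10 separated lower, and they summed to 633 to 894 CPM with vehicle and 429 to 672 CPM with LSN. Pericyte markers were below 0 in 8 of 9 (5 separating lower) and summed to 199 to 295 CPM against 126 to 518 CPM. Smooth muscle markers were below 0 in 7 of 9 (3 separating lower, 1 higher) and summed to 138 to 189 CPM against 148 to 166 CPM. Endothelial markers were below 0 in 11 of 12 (10 separating lower), with a median log2 fold change of -1.57 and sums of 620 to 743 CPM against 211 to 686 CPM, the upper end of which came from Vwf. DESeq2 called 1 endothelial gene, Cldn5, at an adjusted p of 0.000647. Mesothelial markers were below 0 in 7 of 7 (4 separating lower) and summed to 127 to 145 CPM against 44.0 to 75.3 CPM.

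Markers of normal lung epithelium were below 0 in 12 of 12, 9 of them separating lower, with a median log2 fold change of -2.15 and sums of 6648 to 8712 CPM against 498 to 1981 CPM. The level of these markers moved with the groups, and its part in the levels of the 10 genes was not tested. Neuroendocrine markers, which define this cancer, were present in all tumours, at 2990 to 7626 CPM with vehicle and 5696 to 9188 CPM with LSN, and were lowest in vehicle tumour 2, where the collagens were highest. They were above 0 in 7 of 12 with a median log2 fold change of 0.29, where 9531 of all 17906 genes tested were above 0. Their median difference in mean log2 CPM was 0.48 with all tumours and -0.17 without vehicle tumour 2. Macrophage markers were above 0 in 6 of 9 (median log2 fold change 0.48) and summed to 853 to 3218 CPM against 785 to 1433 CPM. Their median difference in mean log2 CPM was 0.56, and -0.13 without vehicle tumour 1. Schwann cell markers were below 0 in 2 of 4 tested (median log2 fold change -0.04), at 19.7 to 23.0 CPM against 5.68 to 18.0 CPM. For them the median difference in mean log2 CPM was -0.39, and 0.14 without vehicle tumour 1. Cartilage and bone markers were below 0 in 4 of 4 tested (median -0.19), at 10.4 to 12.9 CPM against 5.90 to 16.0 CPM, with Ibsp at 0 in all tumours.

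**Figure D5:**
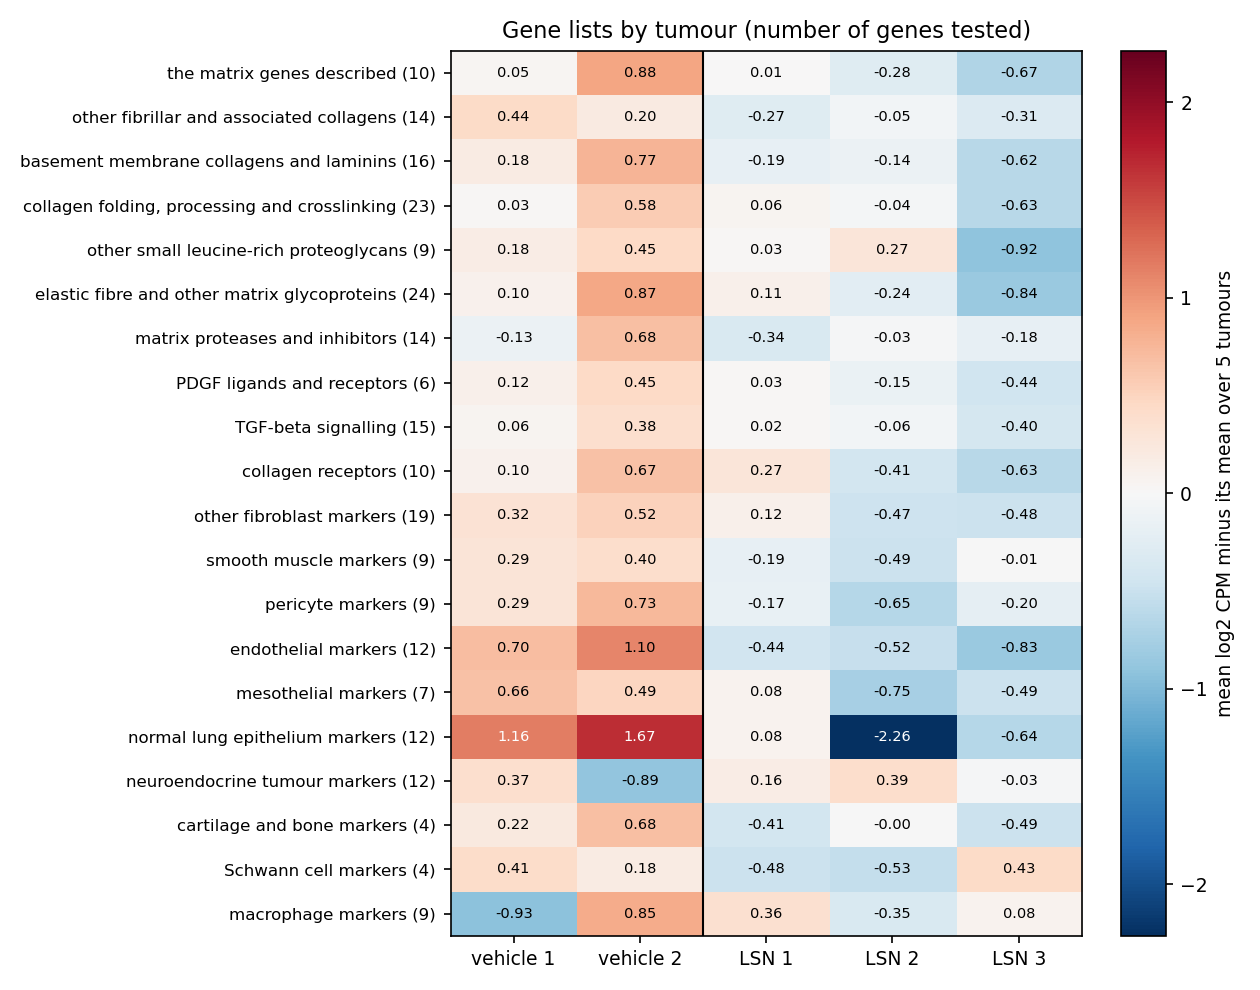
Mean log2 CPM of each gene list (rows, with the number of genes tested) in each tumour (columns), minus its mean over the 5 tumours (colour and printed value). The 10 matrix genes run from 0.88 in vehicle tumour 2 to -0.67 in LSN tumour 3, and the normal lung epithelium markers from 1.67 in vehicle tumour 2 to -2.26 in LSN tumour 2.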

How the data were processed

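The deposited table held raw read counts (whole numbers) and a length in bases for each gene. Per the labels' protocols, non-stranded libraries were read as paired ends, mapped to mm10 with STAR and compared with DESeq2. The counting program, its annotation and the STAR version were not given in the sources used here. In the deposited table, coordinates and lengths of all 10 genes matched GENCODE M21.

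Groups came from the treatment label, and no label gave a pairing or a batch. The number in the name of vehicle tumour 2 lay well apart from those of the other tumours, which lay close together. What these numbers stand for is not stated, and their part in the levels was not tested. LSN was compared with vehicle in edgeR 4.0.16 (R 4.3.3). The fit used a robust quasi-likelihood test, TMM and filterByExpr with a minimum count of 10 and total of 15, with 3 residual degrees of freedom. Adjustment was by Benjamini-Hochberg over all genes tested, with a threshold of 0.05. The procedure was also run on simulated counts, where a pass was required only at the lower of 2 spreads. That run does not show how many changed genes would be found at the spread of these tumours. Log2 CPM used a prior count of 2. Ratios were tested by exact permutation in scipy 1.17.1. Alternatives were DESeq2 1.42.0, limma-voom (limma 3.58.1), RLE scaling, total counts, 2 other filters, a non-robust fit, a smaller prior count (0.5) and leaving out each tumour.

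The 10 genes and the 9 functional and 10 marker lists were chosen with earlier results of these data known. The text names all 10 genes, the 12 genes nearest to their mean profile, the gene nearest to each, and genes from among the 2 smallest p-values and the 2 highest levels of each list. Genes named otherwise are marked as chosen after their values were seen.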

Additional observations from a re-analysis of the deposited data

How the results depend on the processing

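With 2 vehicle tumours, each group mean rests heavily on single samples. Genes with an adjusted p under 0.05 numbered 100 with DESeq2 and 0 with edgeR and every other setting, each tumour left out included. The median log2 fold change of the 10 genes ranged from -1.26 to -0.34 as each tumour was left out. Dcn reversed, at 0.51 without vehicle tumour 1, and ranged from -0.78 to 0.51. Pdgfra reversed to -0.57 with limma-voom and ranged from -2.70 to 2.51, with -0.01 without vehicle tumour 1. The remaining 8 genes stayed below 0 under every alternative run. The number of genes with an unadjusted p under 0.05 is given here only for fits that kept both vehicle tumours. A fit without either of them leaves a single vehicle tumour, and its number is left out. Among the 10 genes, the number was 4 with total counts in place of TMM, 3 without a count filter and 2 without LSN tumour 2. It was 1 in every other fit that kept both vehicle tumours. Over all genes the number was 771 with total counts, 958 without a count filter and 722 without LSN tumour 2. It was 764 of 17906 in the main edgeR fit, 1218 in DESeq2, 1181 without LSN tumour 1 and 505 without LSN tumour 3. The group difference in the log2 ratio of Dcn to Lum was 0.54, 1.15 without vehicle tumour 1 and -0.08 without vehicle tumour 2. The nearest 12 genes shared 11 with a prior count of 0.5 and 12 without TMM. No paired analysis was possible because every tumour had its own name and no label links a vehicle tumour to an LSN tumour. Depth limits chiefly Lum, with 30 to 75 reads per tumour.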
